A study of Homo sapiens with 8 samples.

Results

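The genes described here encode the enzymes that bring pyruvate into mitochondria and turn the citric acid cycle. Also among them are genes of the malic enzymes, pyruvate carboxylase, a carboxykinase that makes phosphoenolpyruvate and 1 dehydrogenase of 2-hydroxyglutarate. All were chosen by role, as a list of 32 gene symbols. Each of the 32 matched 1 of the 20453 gene IDs counted in every library. The cells were human and labelled THP-1, an established line of acute monocytic leukaemia. They had been transduced with wild-type DNMT3A, a DNA methyltransferase, or with a DNMT3A mutant, so that all groups carried an introduced DNMT3A. RNA-seq of mRNA and ribosome profiling (sequencing of the mRNA fragments, or footprints, that ribosomes protect from nuclease) were each done on 2 libraries of either genotype, 8 libraries in all. The sources used here do not give the vector, its promoter or whether the transduced cells were a clone, and an untransduced group was not analysed here. Whether replicates were separate cultures is not in the labels, so each p-value speaks for the variation among these libraries alone, and that variation may be technical.

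Pyruvate made by glycolysis crosses the inner mitochondrial membrane through a carrier and is then oxidised to acetyl-CoA by pyruvate dehydrogenase or carboxylated to oxaloacetate by pyruvate carboxylase. The cycle joins acetyl-CoA to oxaloacetate, releases carbon dioxide at the isocitrate and 2-oxoglutarate steps, and regenerates oxaloacetate through succinate, fumarate and malate. Its intermediate 2-oxoglutarate is a substrate of the TET enzymes, which oxidise the methyl group that DNMT3A places on cytosine, while succinate, fumarate and 2-hydroxyglutarate compete with it. Isocitrate dehydrogenases and fumarate hydratase are mutated in human tumours, in leukaemia above all IDH1 and IDH2.

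Total counts lay between 3415999 and 4523475 in the mRNA libraries and between 603360 and 1988513 in the footprint libraries, and the mutant footprint libraries were the shallowest, with 944824 and 603360 counts. Levels are given in CPM, counts scaled to the library total times its TMM factor within the assay. DNMT3A mRNA was at 291 and 294 CPM in wild type and at 241 and 244 in the mutant (log2 difference -0.27, SE 0.0533, edgeR adjusted p = 4.26e-06). DNMT3A footprints were at 137 and 153 against 143 and 148 CPM (edgeR adjusted p = 0.992). The counts of DNMT3A hold introduced and resident copies alike, so they do not check the labels. Of 24 monocyte and macrophage markers, 10 had no mRNA count in any library, CSF1R, S100A8, S100A9, MPO and FCN1 among them, and only 6 or 7 of the 24 reached 10 CPM in an mRNA library, with a sum of 410.2 to 451 CPM. Of 20 erythroid markers none was at 0 in an mRNA library, and they summed to 3727 and 3761 CPM in wild type and to 3204 and 3250 CPM in the mutant. Several defining markers of the labelled cell type were thus absent. Others of that list were present, such as FCGR2A (219 to 265 CPM), CD33 (60.4 to 70.3 CPM) and SPI1 (37.1 to 47.9 CPM). Of the erythroid markers, 18 reached 10 CPM in each wild-type mRNA library and 16 in each mutant one. GATA1 was at 397 to 437 CPM, TFRC at 867 to 921 and EPB42 at 0.295 to 0.764. The erythroid sum was lower in the mutant. The part of these genes in the differences below was not tested.

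In mRNA, 9 of the 31 enzyme genes tested passed an adjusted p under 0.05 (29.0%), 5 higher and 4 lower in the mutant, where 37.8% of all 10756 genes tested did (18.9% higher, 18.9% lower). In footprints 8 of 30 did (26.7%), 3 higher and 5 lower, against 21.2% of 9181 genes (10.3% higher, 10.9% lower). Footprints per mRNA, the interaction of genotype and assay, differed for 1 of 30 (3.33%), which was lower, against 4.16% of 9166 genes (1.67% higher, 2.49% lower). These shares lie near those of all genes and are not read as a result about the set. With a trend with local gene density removed, as described further on, the split was 8 higher and 3 lower in mRNA and 1 higher and 4 lower in footprints. The libraries are bulk cultures, in which fewer cells of a type and less RNA per cell cannot be told apart. The median log2 fold change of the genes tested was 0.011 in mRNA, against -0.0020 over all genes, and -0.10 in footprints, against 0.0055. Together the 32 genes took 0.410% to 0.415% of mRNA counts in the 4 libraries, 0.635% and 0.644% of footprint counts in wild type and 0.614% and 0.630% in the mutant.

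Most changes were small. FH, IDH1, PDHB, ME1 and ME2 rose in mRNA and MDH2, OGDH, IDH3G and PC fell. SUCLG1, MPC1 and ME2 rose in footprints and FH, MDH2, IDH3G, PC and CS fell. Only PC moved by 1.5-fold or more in mRNA among the 31 genes tested, and 5 genes were called in both assays: PC, IDH3G and MDH2 lower in both, ME2 higher in both, and FH higher in mRNA and lower in footprints. The other 20 of the 32 genes were called in no comparison, among them ME3, the second mitochondrial malic enzyme, which had 0, 1, 1 and 2 mRNA counts and no footprint in any library and was not tested. Those uncalled genes that were tested had log2 fold changes of -0.21 to 0.21 in mRNA, -0.53 to 0.66 in footprints and -0.35 to 0.86 in footprints per mRNA. With DESeq2, IDH1, ME1, ME2, MDH2 and PC were called in mRNA, MDH2 in footprints and FH in footprints per mRNA. The other calls were then lost, with DESeq2 adjusted p values of 0.0971 to 0.277 in mRNA and 0.0661 to 0.295 in footprints. With no filter on low counts, the calls of MPC1 (edgeR adjusted p = 0.0632) and SUCLG1 (0.117) in footprints and of OGDH (0.103) in mRNA were lost.

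**Figure D1:**
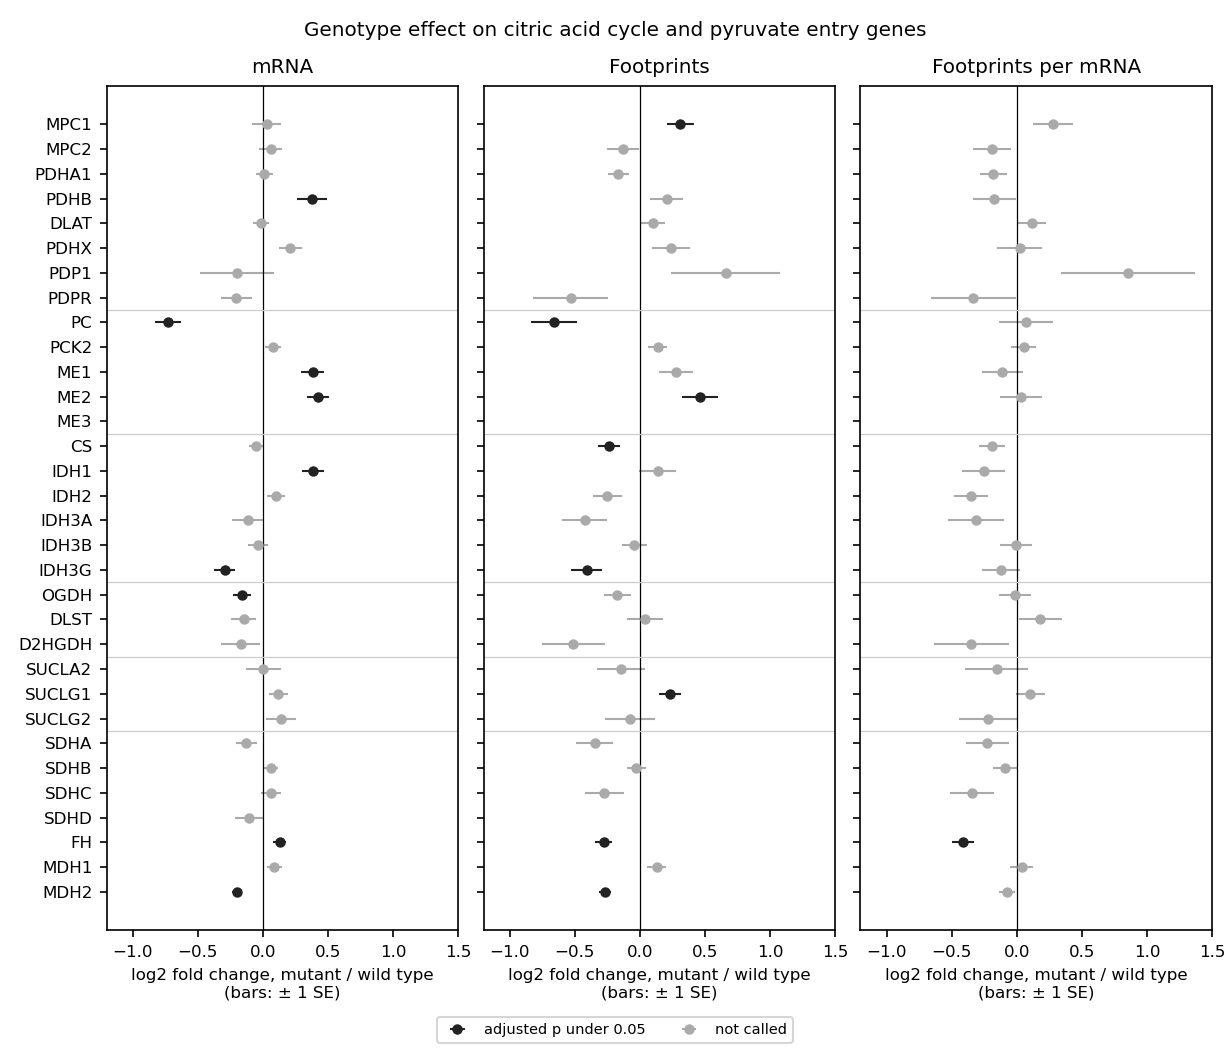
Log2 fold change of mutant over wild type for each enzyme gene (x axis, bars ± 1 SE) in mRNA, footprints and footprints per mRNA, ordered by step of the pathway; black points passed an adjusted p under 0.05. PC lies at -0.73 in mRNA, and FH lies right of 0 in mRNA, left of 0 in footprints and at -0.41 in footprints per mRNA. ME3 was not tested, nor was SDHD outside mRNA.

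At pyruvate entry, 1 of 8 genes was called in mRNA and another in footprints. MPC1 and MPC2 form the mitochondrial pyruvate carrier. MPC1 (ENSG00000060762, chr6:166364919-166382940 in GRCh38) had 149 and 148 footprint CPM in wild type and 189 and 176 in the mutant, from 108 to 288 counts. MPC1 footprints thus rose 1.24-fold (log2 0.31, SE 0.105, edgeR adjusted p = 0.0232). Its mRNA was at 48.7 and 39.4 against 46.7 and 41.5 CPM from 163 to 208 counts (log2 difference 0.026, SE 0.114, edgeR adjusted p = 0.883). Both mutant footprint libraries lay above both wild-type ones and the mRNA groups overlapped. The footprint call did not hold without wild-type footprint replicate 2 (edgeR adjusted p = 0.0824), mutant footprint replicate 1 (0.378) or mutant footprint replicate 2 (0.0783). Its partner MPC2 had 122 and 131 against 115 and 117 footprint CPM (edgeR adjusted p = 0.495) and 76.7 and 79.2 against 80.6 and 82.2 mRNA CPM (edgeR adjusted p = 0.629).

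PDHB, which encodes the beta subunit of the decarboxylating E1 component of pyruvate dehydrogenase, rose in mRNA. PDHB (ENSG00000168291, chr3:58427630-58433832) was at 37.2 and 38.5 CPM in wild type and at 51.9 and 46.1 in the mutant, from 126 to 231 counts, with no overlap (1.30-fold, log2 0.37, SE 0.115, edgeR adjusted p = 0.00503). Without mutant mRNA replicate 1 its log2 fold change was 0.28 (edgeR adjusted p = 0.134). Its footprints were at 114 and 102 against 119 and 130.4 CPM, from 80 to 198 counts. The PDHB footprint log2 fold change was 0.21 (SE 0.125, edgeR adjusted p = 0.246). PDHA1 encodes the alpha subunit of the same component. PDHA1 mRNA was at 162 ± 3.89 CPM in wild type and 164 ± 9.32 in the mutant (SD, n = 2, edgeR adjusted p = 0.913), and its footprints were at 303 ± 4.90 and 269.7 ± 3.52 (edgeR adjusted p = 0.153). The other genes of the complex and its regulators were DLAT, the acetyltransferase, PDHX, which tethers the E3 component, PDP1, a catalytic subunit of the activating phosphatase, and PDPR, that phosphatase's regulatory subunit. None of these 4 was called in any comparison. DLAT was at 171 ± 6.32 and 169.7 ± 1.52 mRNA CPM and at 218 ± 9.80 and 239 ± 39.8 footprint CPM, and PDPR at 43.1 ± 2.96 and 37.7 ± 3.17 and at 26.2 ± 5.77 and 18.7 ± 5.85, in wild type and mutant (SD, n = 2). PDHX came nearest in mRNA, at 60.5 and 68.3 CPM in wild type and 74.3 and 75.9 in the mutant (log2 fold change 0.21, edgeR adjusted p = 0.0565). PDP1 had only 8 to 12 footprint counts a library, and its footprint log2 fold change of 0.66 had an SE of 0.419 (edgeR adjusted p = 0.272), so that a difference of this size was not detectable at this depth.

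Among the enzymes that carboxylate pyruvate or return carbon from the cycle to it, the carboxylase PC fell and the malic enzymes ME1 and ME2 rose in mRNA. PC, pyruvate carboxylase, makes oxaloacetate to refill the cycle. PC (ENSG00000173599, chr11:66848420-66958383) was at 75.6 and 76.3 mRNA CPM in wild type and at 46.0 and 45.3 in the mutant, from 178 to 341 counts, which is 0.602 of the wild-type level (log2 -0.73, SE 0.0992, edgeR adjusted p = 8.60e-12). The replicates of each genotype lay within 1 CPM of each other in mRNA, and the groups were far apart. In footprints it was at 74.9 and 77.0 CPM in wild type and at 57.1 and 34.2 in the mutant, from 21 to 150 counts. The PC footprint log2 fold change was -0.66 (SE 0.175, edgeR adjusted p = 0.00296). The mutant footprint libraries differed among themselves but both lay below wild type, and the log2 fold change was -0.42 without mutant footprint replicate 2 (edgeR adjusted p = 0.168) and -1.15 without mutant footprint replicate 1 (0.0257). Footprints per mRNA of PC had a log2 difference of 0.069 (SE 0.209, edgeR adjusted p = 0.907), which was -0.43 without mutant footprint replicate 1. The mRNA call of PC held in 12 of 12 alternatives, the only call of an enzyme gene that also held with the coefficient of variation between replicates set to 10% (edgeR adjusted p = 0.00735).

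ME1, the cytosolic malic enzyme, and ME2, a mitochondrial one, turn malate into pyruvate, and both rose in mRNA. ME1 (ENSG00000065833, chr6:83210402-83431051) was at 69.6 and 72.5 mRNA CPM in wild type and 91.2 and 94.4 in the mutant, from 236 to 406 counts. ME1 mRNA thus rose 1.30-fold (log2 0.38, SE 0.0857, edgeR adjusted p = 8.27e-05). Its footprints were at 84.4 and 108 against 114 and 124 CPM, from 76 to 211 counts, a log2 fold change of 0.28 (SE 0.131) that was not called (edgeR adjusted p = 0.125). ME2 (ENSG00000082212, chr18:50879118-50954257) was at 81.5 and 69.4 mRNA CPM in wild type and 99.0 and 102 in the mutant, from 276 to 441 counts. ME2 mRNA thus rose 1.34-fold (log2 0.42, SE 0.0834, edgeR adjusted p = 4.77e-06). In footprints ME2 was at 79.4 and 69.8 CPM in wild type and 101 and 104 in the mutant, from 64 to 136 counts. ME2 footprints thus rose 1.38-fold (log2 0.46, SE 0.141, edgeR adjusted p = 0.0110). Mutant libraries lay above wild-type ones for both genes in both assays. The footprint call of ME2 did not hold without wild-type footprint replicate 2 (edgeR adjusted p = 0.134), mutant footprint replicate 1 (0.180) or mutant footprint replicate 2 (0.104). PCK2, the mitochondrial enzyme that turns oxaloacetate into phosphoenolpyruvate, was at 195 ± 2.10 mRNA CPM in wild type and 206 ± 7.07 in the mutant (SD, n = 2, edgeR adjusted p = 0.313). PCK2 footprints were at 335 ± 12.5 and 371 ± 16.6 CPM (edgeR adjusted p = 0.207).

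DNMT3A acts on the cytosine of CpG dinucleotides. The 250 bases before the listed start are therefore shown for 4 of the genes called in mRNA at the malate and pyruvate steps. They are from RefSeq (GRCh38.p14), 5′ to 3′ on the gene's strand, with each CpG in capitals. Of the 4 genes, ME1 lost its mRNA call with the gene density trend removed (log2 0.20, edgeR adjusted p = 0.0527). PDHB and FH were also called in mRNA at such steps. The window of PDHB is not printed and holds 26 CpG, and that of FH is given further on. Methylation was not measured in these libraries. The windows are chr6:83431052-83431301 on the minus strand for ME1, with 25 CpG, and chr18:50878868-50879117 on the plus strand for ME2, with 27. Those of the genes that fell are chr11:66958384-66958633 on the minus strand for the outermost of 3 listed starts of PC, with 21, and chr7:76047856-76048105 on the plus strand for MDH2, a gene described below, with 20.
ME1: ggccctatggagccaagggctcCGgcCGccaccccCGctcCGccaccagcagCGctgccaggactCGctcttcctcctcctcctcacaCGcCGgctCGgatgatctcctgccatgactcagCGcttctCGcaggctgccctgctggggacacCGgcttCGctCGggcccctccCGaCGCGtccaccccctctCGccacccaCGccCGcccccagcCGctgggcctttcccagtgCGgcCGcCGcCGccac
ME2: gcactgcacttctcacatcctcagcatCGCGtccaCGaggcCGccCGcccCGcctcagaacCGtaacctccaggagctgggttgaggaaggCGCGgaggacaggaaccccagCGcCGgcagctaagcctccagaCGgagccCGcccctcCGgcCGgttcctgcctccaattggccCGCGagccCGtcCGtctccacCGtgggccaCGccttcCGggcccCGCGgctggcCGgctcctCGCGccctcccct
PC: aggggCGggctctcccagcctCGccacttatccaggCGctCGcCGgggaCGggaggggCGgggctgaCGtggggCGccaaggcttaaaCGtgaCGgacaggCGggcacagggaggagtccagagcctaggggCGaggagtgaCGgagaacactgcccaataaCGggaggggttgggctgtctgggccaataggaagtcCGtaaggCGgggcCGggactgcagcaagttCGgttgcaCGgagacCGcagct
MDH2: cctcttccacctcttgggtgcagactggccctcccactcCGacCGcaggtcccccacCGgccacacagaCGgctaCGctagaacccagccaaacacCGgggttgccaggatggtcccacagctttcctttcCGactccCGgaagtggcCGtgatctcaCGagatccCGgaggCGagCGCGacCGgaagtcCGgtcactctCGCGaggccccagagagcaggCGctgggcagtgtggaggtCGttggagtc
These 4 windows hold 20 to 27 CpG, and those of the other 2 listed starts of PC hold 8 and 4, against a median of 11 CpG over all 35116 windows of this length in the table. RefSeq windows were matched for 29 of the 32 genes, 39 windows in all, with a median of 21 CpG and a range of 3 to 36. The antioxidant response element core TGACNNNGC, searched on both strands, was found in 4 of the 39 windows (10.3%), those of ME1, IDH1, IDH3G and MPC1, and in 10.9% of all windows. Of these 4 genes, ME1 and IDH1 rose and IDH3G fell in mRNA. These are matches of letters, not measured binding.

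At the steps from citrate to 2-oxoglutarate, 2 of 6 genes were called in mRNA and 2 in footprints. CS, citrate synthase, the enzyme that opens the cycle, fell in footprints. CS (ENSG00000062485, chr12:56271699-56300330) was at 307 and 304 footprint CPM in wild type and 251 and 270.5 in the mutant, from 166 to 593 counts. CS footprints thus fell to 0.847 of wild type (log2 -0.24, SE 0.0845, edgeR adjusted p = 0.0303). CS mRNA was at 307 and 316 against 302 and 299 CPM, from 1040 to 1412 counts (log2 fold change -0.054, edgeR adjusted p = 0.418). The footprint groups did not overlap, but the call was lost without any 1 of the 4 footprint libraries (edgeR adjusted p from 0.0511 without wild-type replicate 1 and 0.0629 without wild-type replicate 2 to 0.0815 without mutant replicate 2 and 0.429 without mutant replicate 1).

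IDH1, the isocitrate dehydrogenase of the cytosol and peroxisomes, rose in mRNA. IDH1 (ENSG00000138413, chr2:208236227-208255071) was at 83.5 and 72.5 mRNA CPM in wild type and 103 and 98.5 in the mutant, from 283 to 460 counts. IDH1 mRNA thus rose 1.31-fold (log2 0.39, SE 0.0826, edgeR adjusted p = 3.08e-05). Without wild-type mRNA replicate 2 its log2 fold change was 0.28 (edgeR adjusted p = 0.0549). Its footprints were at 82.5 and 88.8 CPM in wild type and 104 and 79.8 in the mutant, from 49 to 173 counts, and overlapped between the genotypes (log2 fold change 0.14, SE 0.141, edgeR adjusted p = 0.541); without mutant footprint replicate 1 that value was -0.11. IDH2, its mitochondrial counterpart, had 121 and 130.5 mRNA CPM in wild type and 131 and 140.0 in the mutant (log2 fold change 0.10, SE 0.0697, edgeR adjusted p = 0.272). In footprints IDH2 was at 159 and 187 against 143 and 152 CPM (log2 difference -0.25, SE 0.110, edgeR adjusted p = 0.0933). The resulting log2 difference in footprints per mRNA of -0.35 (SE 0.131) had an unadjusted p of 0.00877 and was not called (edgeR adjusted p = 0.117).

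IDH3G, a regulatory subunit of the NAD-dependent isocitrate dehydrogenase of the cycle, fell in both assays. IDH3G (ENSG00000067829, chrX:153785768-153794375) was at 100.05 and 106 mRNA CPM in wild type and 79.5 and 89.3 in the mutant, from 339 to 472 counts. IDH3G mRNA thus fell to 0.816 of wild type (log2 -0.29, SE 0.0805, edgeR adjusted p = 0.00142). In footprints it was at 154 and 159 against 108 and 134 CPM, from 82 to 310 counts. IDH3G footprints thus fell to 0.753 of wild type (log2 -0.41, SE 0.118, edgeR adjusted p = 0.00653). Neither assay showed overlap between the genotypes. The mRNA change was not called when wild-type mRNA replicate 2 (edgeR adjusted p = 0.0902) or the first mutant mRNA library (0.0950) was left out, nor the footprint change without mutant footprint replicate 1 (log2 fold change -0.23, edgeR adjusted p = 0.447). The catalytic subunit gene IDH3A had 39.3 and 38.5 mRNA CPM in wild type and 37.7 and 33.6 in the mutant (edgeR adjusted p = 0.477). IDH3A footprints were at 66.1 and 66.7 against 46.8 and 53.8 CPM (log2 difference -0.42, SE 0.175, edgeR adjusted p = 0.0697). IDH3B, the other regulatory subunit, had 113 and 109 mRNA CPM in wild type and 111 and 104 in the mutant (edgeR adjusted p = 0.710). IDH3B footprints were at 209 and 218 against 224 and 182 CPM (edgeR adjusted p = 0.804). The 3 subunit genes thus gave mRNA log2 fold changes of -0.12 (SE 0.124), -0.041 (SE 0.0752) and -0.29 for IDH3A, IDH3B and IDH3G, and differences between subunits were not tested.

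**Figure D2:**
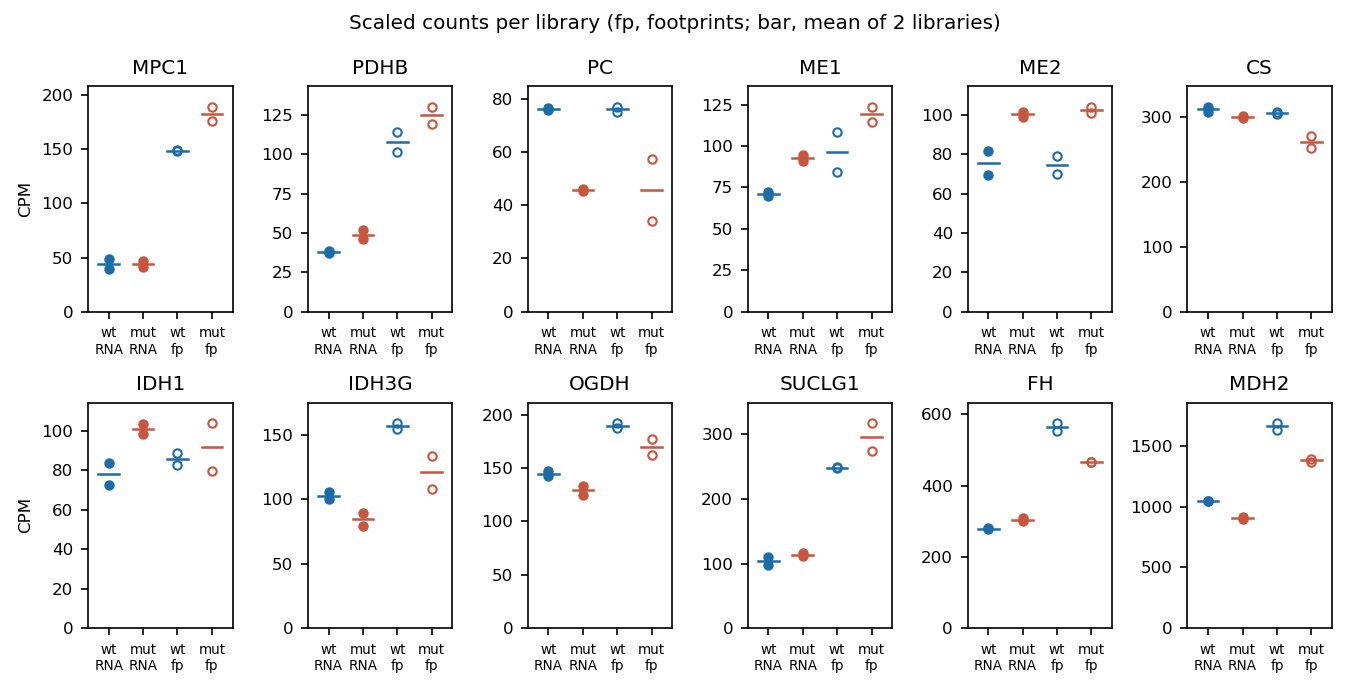
Scaled counts per library (CPM, y axis from 0) of the 12 enzyme genes called in at least 1 comparison; points are libraries (filled, mRNA; open, footprints; blue, wild type; red, mutant) and bars are means of 2 libraries. FH rises slightly in mRNA, from 280.1 and 278 to 301 and 309.5 CPM, and falls in footprints, from 554 and 576 to 466 and 466, while PC falls in both assays.

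Of the genes that use 2-oxoglutarate or make it from 2-hydroxyglutarate, 1 of 3 was called, in mRNA. OGDH, the decarboxylating component of the 2-oxoglutarate dehydrogenase complex (ENSG00000105953, chr7:44606627-44709066), was at 147 and 142 mRNA CPM in wild type and 125 and 133 in the mutant, from 498 to 635 counts. OGDH mRNA thus fell to 0.893 of wild type (log2 -0.16, SE 0.0685, edgeR adjusted p = 0.0455). The groups did not overlap, but OGDH was not called when wild-type replicate 1 (edgeR adjusted p = 0.229), wild-type replicate 2 (0.142) or mutant replicate 1 (0.293) of the mRNA was left out. In footprints OGDH was at 192 and 187 against 162 and 178 CPM, from 109 to 365 counts. The OGDH footprint log2 fold change was -0.17 (SE 0.103, edgeR adjusted p = 0.240). DLST, the succinyltransferase core of the same complex, was at 69.1 and 64.9 mRNA CPM in wild type and 61.1 and 59.1 in the mutant (log2 fold change -0.15, SE 0.0960, edgeR adjusted p = 0.211). DLST footprints were at 90.1 and 89.3 against 84.2 and 104 CPM (edgeR adjusted p = 0.889). D2HGDH, which oxidises D-2-hydroxyglutarate to 2-oxoglutarate, was at 25.7 and 27.8 mRNA CPM in wild type and 24.0 and 23.7 in the mutant (log2 fold change -0.17, SE 0.149, edgeR adjusted p = 0.383). Its footprints, 32.1 and 38.0 CPM in wild type and 23.9 and 26.1 in the mutant, rested on 16 to 74 counts. The D2HGDH footprint log2 fold change was -0.51 (SE 0.241, edgeR adjusted p = 0.120).

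At the succinyl-CoA step, none of 3 genes was called in mRNA and 1 in footprints. SUCLG1, the alpha subunit common to the ATP-forming and the GTP-forming succinyl-CoA ligase (ENSG00000163541, chr2:84423528-84459280), was at 248 and 250.01 footprint CPM in wild type and 274 and 318 in the mutant, from 195 to 487 counts. SUCLG1 footprints thus rose 1.17-fold (log2 0.23, SE 0.0857, edgeR adjusted p = 0.0435). Its mRNA was at 98.6 and 109.9 against 112 and 116 CPM, from 334 to 498 counts (log2 fold change 0.12, edgeR adjusted p = 0.209). The footprint call was lost without any 1 of the 4 footprint libraries: without wild-type replicate 1 (edgeR adjusted p = 0.0857), wild-type replicate 2 (0.0990), mutant replicate 1 (0.105, log2 fold change 0.35) or mutant replicate 2 (0.415, log2 fold change 0.14). Wild-type and mutant mRNA stood at 29.9 ± 8.42 and 30.7 ± 0.182 CPM for SUCLA2 and at 40.0 ± 4.46 and 44.5 ± 0.0560 CPM for SUCLG2 (SD, n = 2). SUCLA2 and SUCLG2, the beta subunits that set the nucleotide used, had footprint log2 fold changes of -0.14 (SE 0.186) and -0.074 (SE 0.191), and neither was called (edgeR adjusted p = 0.638 and 0.833).

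From succinate to oxaloacetate, FH and MDH2 were called in both mRNA and footprints, and the 4 subunit genes of succinate dehydrogenase were called in neither. FH, fumarate hydratase, which hydrates fumarate to malate in mitochondria and in the cytosol, was the 1 enzyme gene whose footprints per mRNA differed. FH (ENSG00000091483, chr1:241497603-241519755) was at 280.1 and 278 mRNA CPM in wild type and 301 and 309.5 in the mutant, from 949 to 1340 counts. FH mRNA thus rose 1.09-fold (log2 0.13, SE 0.0517, edgeR adjusted p = 0.0377). In footprints it was at 554 and 576 CPM in wild type and 466 and 466 in the mutant, from 286 to 1122 counts. FH footprints thus fell to 0.824 of wild type (log2 -0.28, SE 0.0661, edgeR adjusted p = 7.76e-04). The groups did not overlap in either assay, with the mutant above wild type in mRNA and below it in footprints. The difference between these effects was -0.41 on the log2 scale, 0.751 of the wild-type footprints per mRNA (SE 0.0817, edgeR adjusted p = 3.31e-04). It was called in 15 of 16 alternatives, with log2 values of -0.44 to -0.39, the exception being a coefficient of variation set to 10% (edgeR adjusted p = 0.910). The 2 assays taken alone were less firm: the mRNA change was not called when wild-type replicate 1 (edgeR adjusted p = 0.160), wild-type replicate 2 (0.225) or mutant replicate 2 (0.0924) of the mRNA was left out, nor the footprint change without mutant footprint replicate 1 (0.110). With the gene density trend removed, the mRNA log2 fold change was -0.0049 (edgeR adjusted p = 0.955) and the footprint one -0.41.

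The window of 250 bases before the start of FH (chr1:241519756-241520005, minus strand, GRCh38.p14, RefSeq) is given because FH was the 1 enzyme gene called in opposite directions in mRNA and footprints. It holds 12 CpG (in capitals), near the median of 11 over all windows and below the median of 21 over the enzyme gene windows. That is fewer than the 20 to 27 in the 4 windows printed above and more than the 8 and 4 at the other starts of PC. Whether this window bears on either call of FH was not tested.
FH: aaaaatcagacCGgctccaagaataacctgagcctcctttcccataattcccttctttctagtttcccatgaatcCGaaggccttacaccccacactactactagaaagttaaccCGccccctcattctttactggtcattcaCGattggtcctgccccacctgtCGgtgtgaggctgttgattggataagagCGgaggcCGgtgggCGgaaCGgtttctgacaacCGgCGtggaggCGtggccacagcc
The antioxidant response element core was not found in these letters.

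MDH2, mitochondrial malate dehydrogenase, which closes the cycle by making oxaloacetate, fell in both assays. MDH2 (ENSG00000146701, chr7:76048106-76067508) was at 1042 and 1046 mRNA CPM in wild type and 917 and 898 in the mutant, from 3527 to 4674 counts. MDH2 mRNA thus fell to 0.869 of wild type (log2 -0.20, SE 0.0381, edgeR adjusted p = 1.76e-06). In footprints it was at 1633 and 1686 against 1365 and 1393 CPM, from 855 to 3285 counts. MDH2 footprints thus fell to 0.829 of wild type (log2 -0.27, SE 0.0462, edgeR adjusted p = 2.22e-06). All mutant libraries lay below all wild-type libraries of the same assay, and each call held in 11 of 12 alternatives, the exception being a coefficient of variation set to 10%. Its footprints per mRNA had a log2 difference of -0.073 (SE 0.0589, edgeR adjusted p = 0.571). MDH1, the cytosolic malate dehydrogenase, was at 197 ± 0.592 mRNA CPM in wild type and 209 ± 3.96 in the mutant (SD, n = 2, log2 difference 0.086, SE 0.0587, edgeR adjusted p = 0.247). MDH1 footprints were at 409 ± 6.55 and 444 ± 19.8 CPM (log2 difference 0.13, SE 0.0704, edgeR adjusted p = 0.192).

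Succinate dehydrogenase is complex II of the respiratory chain, with SDHA as flavoprotein, SDHB as iron-sulfur subunit and SDHC and SDHD as membrane anchors. SDHA had 101 and 101 footprint CPM in wild type and 82.1 and 74.95 in the mutant (log2 fold change -0.35, SE 0.142, edgeR adjusted p = 0.0654), without overlap. SDHA mRNA was at 95.7 ± 10.2 and 88.4 ± 0.906 CPM (SD, n = 2, edgeR adjusted p = 0.206). In mRNA, SDHB was at 193 ± 2.43 and 201 ± 4.02 CPM and SDHC at 102 ± 0.518 and 106 ± 7.06. SDHB was at 415 ± 15.5 and 409 ± 13.3 footprint CPM (edgeR adjusted p = 0.833). SDHC had 98.3 and 86.8 against 83.1 and 65.2 footprint CPM (log2 difference -0.27, SE 0.148, edgeR adjusted p = 0.185).

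SDHD had few footprints. Its mRNA was counted 164 and 204 times in wild type and 181 and 184 in the mutant. That is 48.4 and 45.7 CPM against 40.6 and 46.8 CPM (log2 difference -0.11, SE 0.113, edgeR adjusted p = 0.486). Its footprints numbered 5 and 5 in wild type and 14 and 3 in the mutant, or 3.15 and 2.57 CPM against 14.5 and 4.89 CPM. For comparison, a floor of 3 counts corresponded to 1.51 to 4.97 CPM in the footprint libraries, counting error only. The 14 counts of mutant footprint replicate 1 stood above the other 3 libraries, which held 3 to 5. The gene did not pass the filter on low counts in footprints. Without that filter its footprint log2 fold change was 1.88 (edgeR adjusted p = 0.0210) and its footprints per mRNA differed by 1.99 (edgeR adjusted p = 0.0331). With the filter in place, it was left out again without mutant footprint replicate 1 and kept without any 1 of the other footprint libraries. SDHA, SDHC and SDHD have pseudogenes elsewhere in the genome, and with the counting of multi-mapping reads not given, their values are uncertain.

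Within each genotype, most of the enzyme genes carried more footprints per mRNA than the median gene. On a log2 scale centred on the median of the 9166 genes kept in both assays, 24 of the 30 enzyme genes lay above 0 in wild type and 6 below. They had a median of 0.41 (1.33 times the median gene) and a range from -0.76 to 1.73. The 10th and 90th percentiles of all genes were -1.14 and 0.92. In the mutant 24 of 30 again lay above 0, with a median of 0.50 (1.41 times). These are levels set across 2 library protocols, so only the place among all genes is read, and no test was made. Which part of a transcript was counted is not given, so this place may also depend on how much of it is coding.

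The highest values in wild type were those of MPC1 at 1.73, PDHB at 1.48, SUCLG1 at 1.23, SDHB at 1.07 and MDH1 at 1.03, each above the 90th percentile of all genes. FH was next, at 0.99 (0.96 and 1.03 in the same-numbered libraries) and at percentile 91.8, and was at 0.61 (0.63 and 0.59) and percentile 79.8 in the mutant. MDH1, the neighbour of FH in this order in wild type, stayed at 1.09 in the mutant. The lowest were PDPR at -0.76 and SDHC at -0.17, with PDP1, CS, ME2 and PC between -0.1 and 0. SDHD, kept in mRNA only, would stand at -3.99 in wild type, or 0.06 of the median gene, below the 1st percentile of the genes kept in both assays.

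**Figure D3:**
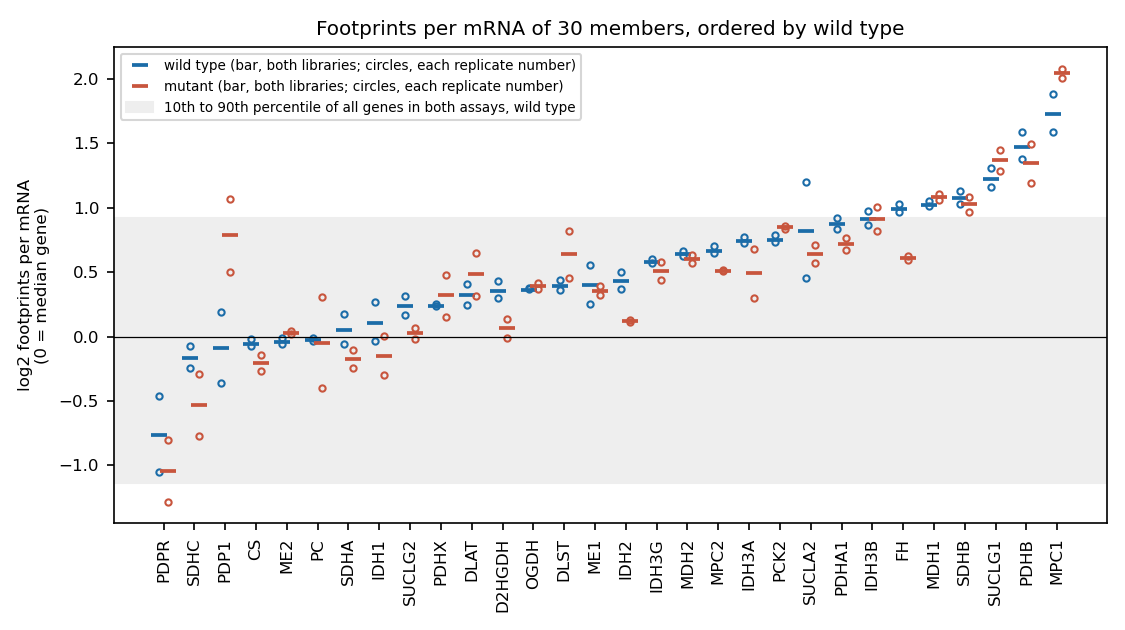
Footprints per mRNA of 30 enzyme genes (log2, y axis; 0 is the median gene), ordered by their wild-type value; bars use both libraries of a genotype and circles are same-numbered libraries, wild type in blue and mutant in red, over the band from the 10th to the 90th percentile of all genes in wild type. FH drops from 0.99 to 0.61 with no overlap of its circles, and 24 of 30 genes lie above 0 in either genotype.

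The genotype difference varied with where genes lie. Sorted into 10 bins by the number of annotated genes within 500 kb, all genes had a median mRNA log2 fold change of 0.20 in the sparsest bin (median of 13 genes) and -0.21 in the densest (76 genes), and footprints went from 0.18 to -0.15. Among the enzyme genes that rose in mRNA, ME1 had 10 genes around it, ME2 15 and FH 18, while PDHB had 27 and IDH1 28, near the medians of the middle bins (26 and 30). Among those that fell, MDH2 and OGDH had 33, PC 47 and IDH3G 55. Not all enzyme genes followed this order: PDHA1, with 11 genes, and SUCLA2, with 19, had mRNA log2 fold changes of 0.011 and 0.0013. SDHC, with 94, and PCK2, with 60, had 0.063 and 0.076, and none of these 4 was called before the trend was removed.

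With this trend removed from each library, 5 of the 9 mRNA calls and 3 of the 8 footprint calls were kept. In mRNA the kept genes were PC (log2 fold change -0.60), MDH2 (-0.19), IDH1 (0.34), PDHB (0.32) and ME2 (0.27). The mRNA change of FH went to -0.0049 (edgeR adjusted p = 0.955), and ME1 was at 0.20 (0.0527), OGDH at -0.15 (0.0674) and IDH3G at -0.13 (0.217). Another 6 genes were then called in mRNA, PCK2, SDHC, IDH2, SDHB and CS higher and PDHA1 lower, for a total of 11, 8 higher and 3 lower, against 29.1% of all genes (15.6% higher, 13.5% lower). In footprints FH (-0.41), MDH2 (-0.26) and PC (-0.55) stayed lower and PDHA1 joined them, and PCK2 was higher, 5 calls against 17.5% of all genes (8.58% higher, 8.92% lower). The calls of 5 genes were lost, at log2 fold changes of 0.28 for MPC1 (edgeR adjusted p = 0.0525, from 0.31), 0.31 for ME2 (0.110, from 0.46), -0.29 for IDH3G (0.0806, from -0.41), -0.10 for CS (0.428, from -0.24) and 0.080 for SUCLG1 (0.563, from 0.23). The lower footprints per mRNA of FH held, where 4.39% of all genes were called, at -0.40 (edgeR adjusted p = 3.48e-04).

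**Figure D4:**
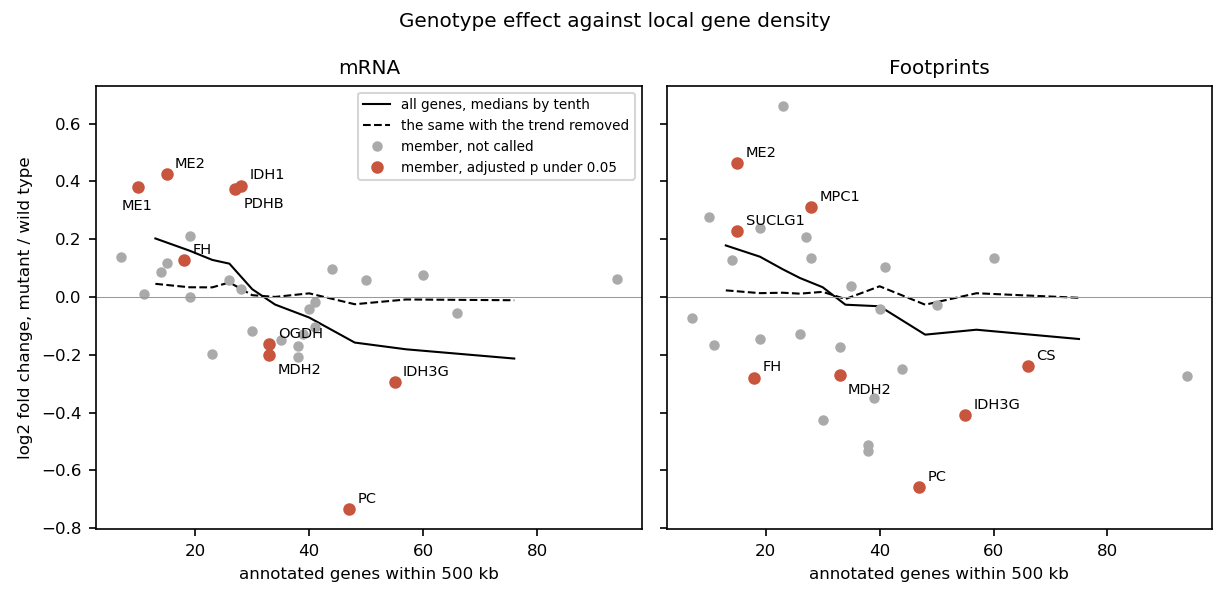
Log2 fold change of mutant over wild type (y axis) against the number of annotated genes within 500 kb (x axis) in mRNA and footprints; points are the enzyme genes (red, adjusted p under 0.05) and lines are medians of all genes by bin, as measured (solid) and with the trend removed (dashed). The solid line falls from 0.20 to -0.21 in mRNA, and PC and MDH2 lie below it in both assays.

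The other genes of the pathway were 33 cofactor enzymes, regulators, carriers and neighbouring enzymes, listed by role. In mRNA 8 of 29 tested were called (3 higher, 5 lower), in footprints 11 of 26 (7 higher, 4 lower) and in footprints per mRNA 3 of 26, all higher, which is 27.6%, 42.3% and 11.5% against 37.8%, 21.2% and 4.16% of all genes. DLD, the E3 subunit common to the pyruvate and 2-oxoglutarate dehydrogenase complexes, rose in both assays. Its mRNA went from 145 ± 7.90 to 203 ± 11.4 CPM (SD, n = 2, log2 0.49, edgeR adjusted p = 5.17e-13) and its footprints from 246 ± 22.3 to 378 ± 22.7 CPM (log2 0.64, edgeR adjusted p = 2.78e-10). LIAS and LIPT1, which make and attach the lipoyl group that these complexes need, also rose in mRNA (log2 0.49 and 0.76, edgeR adjusted p = 0.00336 and 0.0365). In footprints the log2 fold change of LIAS was -0.018 (edgeR adjusted p = 0.971). That of LIPT1 was 1.24, from only 7 to 9 counts (edgeR adjusted p = 0.0443). LIAS lost its call without mutant mRNA replicate 1 (0.333). The call of LIPT1 was lost without any 1 of the 4 mRNA libraries (edgeR adjusted p = 0.0636, 0.253, 0.0847 and 0.119 without wild-type replicates 1 and 2 and mutant replicates 1 and 2). ACLY, ATP citrate lyase, fell in both assays, with log2 fold changes of -0.29 in mRNA (edgeR adjusted p = 2.25e-08) and -0.39 in footprints (edgeR adjusted p = 3.79e-05, and 0.0556 without mutant footprint replicate 1). SLC25A1, the citrate carrier, also fell in both, with -0.24 in mRNA (edgeR adjusted p = 7.70e-07) and -0.21 in footprints (edgeR adjusted p = 0.0131). Its footprint call was lost without mutant footprint replicate 1 (0.307) or 2 (0.0638).

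The carriers SLC25A10 and SLC25A11, which exchange dicarboxylates and 2-oxoglutarate, fell in mRNA, to 0.685 and 0.834 of wild type (log2 -0.55 and -0.26, edgeR adjusted p = 0.00160 and 0.0307). Their footprint log2 fold changes were -0.57 and 0.075 and were not called (edgeR adjusted p = 0.184 and 0.764). Among the mRNA libraries, leaving out wild-type replicate 1 (0.107) or mutant replicate 1 (0.172) ended the call of SLC25A10, and leaving out wild-type replicate 2 (0.527), mutant replicate 1 (0.0770) or mutant replicate 2 (0.107) that of SLC25A11. ACO1, the cytosolic aconitase, which isomerises citrate, rose in footprints (log2 0.59, edgeR adjusted p = 0.00424, and 0.410 without mutant footprint replicate 1). PDK1, a kinase that inactivates pyruvate dehydrogenase, rose in footprints (log2 0.54, edgeR adjusted p = 0.00883; 0.123 and 0.106 without mutant footprint replicates 1 and 2). GOT1, the cytosolic aspartate aminotransferase, which turns aspartate and 2-oxoglutarate into oxaloacetate and glutamate, rose from 235 ± 13.5 to 319.7 ± 15.7 footprint CPM (SD, n = 2, log2 0.44, edgeR adjusted p = 3.40e-05). With the gene density trend removed, LIPT1 (edgeR adjusted p = 0.0989), SLC25A10 (0.0559) and SLC25A11 (0.604) were not called in mRNA, where the log2 fold changes of ACLY, SLC25A1 and TET3 were -0.15, -0.13 and -0.20, nor SLC25A1 (0.202) and PDK1 (0.0881) in footprints.

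Of the TET enzymes, which use 2-oxoglutarate, TET2 and TET3 differed in footprints per mRNA. TET3 had 149 and 157 mRNA CPM in wild type and 115 and 128 in the mutant (log2 fold change -0.34, edgeR adjusted p = 7.03e-06). Its footprints, from 37 to 88 counts, were at 43.5 and 45.2 against 60.3 and 60.3 CPM (log2 fold change 0.44, edgeR adjusted p = 0.0671), which made a log2 difference in footprints per mRNA of 0.78 (SE 0.198, edgeR adjusted p = 0.00949). TET3 lay lower in both mutant mRNA libraries and higher in both mutant footprint libraries, and the interaction was not called without mutant footprint replicate 1 (0.182) or 2 (0.0594). TET2 had 51.4 and 53.3 against 55.9 and 52.4 mRNA CPM (edgeR adjusted p = 0.743) and 20.2 and 22.1 against 41.6 and 35.8 footprint CPM, from 22 to 43 counts (log2 fold change 0.89, edgeR adjusted p = 0.00288; 0.209 without mutant footprint replicate 1). Its log2 difference in footprints per mRNA was 0.83 (SE 0.259, edgeR adjusted p = 0.0484). It was not called without mRNA replicate 2 of wild type (0.0911) or of the mutant (0.0640), nor without any 1 of the footprint libraries (0.139 and 0.103 without wild-type replicates 1 and 2, 0.449 and 0.0994 without mutant replicates 1 and 2). TET1 had mRNA at 119.6 ± 3.03 and 123 ± 3.82 CPM (edgeR adjusted p = 0.707) and footprints at 36.7 ± 1.11 and 41.4 ± 1.30 (edgeR adjusted p = 0.627).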

How the data were processed

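The authors deposited raw counts per Ensembl gene, not normalized, in 1 file a library. Per the submitters' processing notes the tools included featureCounts, STAR, Bowtie2, Trimmomatic and cutadapt, and the build was GRCh38; roles and versions are not stated there. Which feature was counted, with what strand setting, and how multi-mapping reads were handled is not given in the sources used here, so genes with near-identical copies or overlapping neighbours are uncertain. Without strand, an antisense partner's reads cannot be told apart. Per the labels' protocols, mRNA was primed with oligo(dT) and footprints were made with RNase I, size-selected and depleted of ribosomal RNA. A symbol was found for 20407 of 20453 gene IDs.

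Groups came from the sample titles. The enzyme genes and the other lists were chosen with earlier results of these data known, and no test was made over a list. The test was edgeR's quasi-likelihood test (edgeR 4.0.16, R 4.3.3; glmQLFit with legacy set to FALSE, glmQLFTest) after filterByExpr by genotype, with TMM factors within each assay. The mRNA and footprint comparisons used 4 libraries each, and footprints per mRNA an interaction term (genotype by assay) fitted to all 8. Adjusted p-values are Benjamini-Hochberg over all genes tested, and a gene was called under 0.05. The SE is the log2 fold change divided by the root of its F statistic. Levels of footprints per mRNA used a prior count of 0.5. CPM levels were not compared between genes, since transcript lengths were not used here. Footprints per mRNA, a ratio within a gene, were ranked across genes. With the counted feature not given, this ratio need not cancel length. The common biological coefficient of variation was 2.25% in mRNA and 1.92% in footprints. Floors of 3 counts cover counting error only, and, with no molecular identifiers, reads are not independent molecules.

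Named genes were all 32 enzyme genes and, of the other pathway genes, up to 8 called with the smallest p in each comparison, 1 of which is not reported here; TET1 is named beside TET2 and TET3 and was chosen after its values were seen. The alternatives were RLE factors, DESeq2 1.42.0 (adjusted p values it left as NA stay out of counts of lost calls), no filter, a filter of 10 CPM in at least 2 libraries, legacy set to TRUE, a fixed coefficient of variation of 10%, a replicate block, removal of a trend with the number of genes within 500 kb (loess, span 0.4), and leaving out each library; a library left alone in its group is assumed to vary like the other groups. The fits were also run on simulated counts with known changes, and the outcome is not reported here. Correlations between the deviations of same-numbered libraries are given with the alternatives.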

Additional observations from a re-analysis of the deposited data

Results flagged for a closer look

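FH was flagged because its genotype effect differed between the assays by a test of the difference itself, which 4.16% of 9166 genes passed. Its log2 effect in footprints minus that in mRNA was -0.41, with mRNA at 280.1 and 278 CPM in wild type and 301 and 309.5 in the mutant and footprints at 554 and 576 against 466 and 466 CPM. Among the other pathway genes 3 of 26 passed the same test (11.5%). They were TET3 (0.78), TET2 (0.83) and GOT1 (0.35, edgeR adjusted p = 0.0477), all higher in footprints than in mRNA. For GOT1 the call was kept in 5 of 16 alternatives and was lost without any 1 library other than wild-type footprint replicate 1, with adjusted p values without 1 library reaching 0.240 without wild-type footprint replicate 2.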

How the results depend on the processing

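The counts of enzyme genes called changed between alternatives. In mRNA, 9 became 5 with DESeq2 and 1 (PC) with an assumed coefficient of variation of 10%, and lay between 5 and 8 when 1 library was left out (5 without wild-type mRNA replicate 2). In footprints, 8 became 1 with DESeq2 (MDH2), 0 with the assumed variation and 5 with the gene density trend removed, and lay between 2 and 8 when 1 library was left out (2 without mutant footprint replicate 1, 4 without mutant footprint replicate 2). In footprints per mRNA, 1 became 2 with no filter (FH and SDHD) and 0 with the assumed variation, and lay between 1 and 3 (3 without wild-type footprint replicate 1, 2 without mutant footprint replicate 2). In the main edgeR quasi-likelihood fit, 13 of 30 enzyme genes in footprints and 3 of 30 in footprints per mRNA had an unadjusted p under 0.05. The share of all genes at that unadjusted cut is not given here. At the adjusted cut it was 21.2% in footprints and 4.16% in footprints per mRNA, so these counts are not read as a result about the set. The median log2 footprints per mRNA of the enzyme genes in wild type, 0.41, lay between 0.39 and 0.57 when 1 library was left out, the highest without wild-type footprint replicate 1. The cause of these shifts was not tested.

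Over all genes, the 4061 calls in mRNA became 1458 with DESeq2 and 313 with the assumed variation, and 2654 without mutant mRNA replicate 1 and 2280 without wild-type mRNA replicate 2. The 1950 calls in footprints became 384, 288, 1155 without wild-type footprint replicate 2, 274 without mutant footprint replicate 1 and 950 without mutant footprint replicate 2. The 381 in footprints per mRNA became 127 and 13, and lay between 142 and 448 when 1 library was left out (142 and 229 without mutant footprint replicates 1 and 2).

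Some values turned sign, of which only the mRNA change of FH had been called. With the density trend removed, mRNA log2 fold changes were -0.16 for PDHA1, 0.071 for DLAT, -0.020 for MPC1, -0.0085 for MPC2, 0.13 for CS, 0.039 for IDH3B, -0.13 for SUCLA2, -0.032 for SUCLG1, -0.063 for SUCLG2, -0.0049 for FH and -0.067 for MDH1. Footprint values were then 0.028 for IDH3B, 0.087 for SDHB and -0.024 for MDH1, and footprints per mRNA -0.011 for PCK2. With DESeq2, footprints per mRNA were 0.0063 for IDH3B and 0.0082 for OGDH. When 1 library was left out, mRNA values that turned ranged from -0.051 to 0.070 for PDHA1, -0.050 to 0.029 for DLAT, -0.13 to 0.17 for MPC1, -0.10 to 0.014 for IDH3B, -0.22 to 0.36 for SUCLA2, -0.22 to 0.0017 for SDHA and -0.20 to 0.00073 for SDHD. Footprint values that turned ranged from -0.047 to 0.30 for DLAT, -0.11 to 0.27 for IDH1, -0.23 to 0.065 for IDH3B, -0.095 to 0.22 for DLST and -0.067 to 0.010 for SDHB. Footprints per mRNA that turned ranged from -0.43 to 0.31 for PC, -0.036 to 0.31 for DLAT, -0.13 to 0.22 for PDHX, -0.63 to 0.023 for PDPR, -0.20 to 0.10 for IDH3B, -0.25 to 0.053 for IDH3G, -0.072 to 0.061 for OGDH, -0.51 to 0.073 for SUCLA2, -0.021 to 0.069 for MDH1, -0.27 to 0.095 for ME1 and -0.073 to 0.16 for ME2. Of 1432 values of 44 genes (the 31 enzyme genes tested and 13 others) under alternatives, 1229 kept their direction and side of the threshold, 138 lost a call, 13 gained one and 52 turned. Among these values, gains other than with the block or the density trend removed were PDHX in mRNA with the stricter filter, ME1 in footprints without wild-type footprint replicate 2 and IDH2 in footprints and footprints per mRNA without wild-type footprint replicate 1.

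Deviations of same-numbered libraries of the 2 genotypes had correlations across 9166 genes of 0.023 in mRNA and 0.026 in footprints. Between mRNA and footprints the correlations were 0.018 in wild type and 0.041 in the mutant. Counting error enters each deviation and weakens such correlations, so they cannot decide whether the numbers pair the samples. With the replicate number as a block, 10 of 31 enzyme genes were called in mRNA, PDHX being added. In footprints 10 of 30 were called, ME1 and SDHA being added. Over all genes, 4166 of 10756 were then called in mRNA and 2076 of 9181 in footprints. FH was again the 1 enzyme gene of 30 called in footprints per mRNA, where 546 of 9166 genes were called. These counts are not read as a result about the set. Depth limits the footprint values most in the mutant, where 3 counts in the shallowest library equal 4.97 CPM.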
